A study of Mus musculus with 4 samples.

Results

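The 10 genes described here are the peroxiredoxins Prdx1, Prdx2, Prdx3, Prdx4, Prdx5 and Prdx6, the superoxide dismutases Sod1, Sod2 and Sod3, and the catalase gene Cat. They were chosen by gene family, but they and the gene lists used below were chosen with earlier results of these data known. All 10 were found among 19230 listed genes and were among the 13518 genes tested. RNA of the hippocampus, a brain region needed for memory, was sequenced from C57BL/6 mice aged 12 months. The LA group (replicates 1 and 2) had received Licochalcone A, a chalcone of licorice root, for 30 days, and the Ctrl group (replicates 2 and 3) had not. No dose, no route and no account of what the Ctrl mice received instead was found in the sources used here, and the label of the Ctrl group uses a cell culture term. Whether each library is a mouse of its own is not stated, so every p-value rests on the variation among these 4 libraries, part or all of which may be technical.

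Superoxide dismutases turn superoxide, a by-product of respiration and of some oxidases, into hydrogen peroxide and oxygen. Catalase, in peroxisomes, and the peroxiredoxins, spread over the cytosol, mitochondria, endoplasmic reticulum, peroxisomes and secreted fluid, then remove the hydrogen peroxide. Most peroxiredoxins are returned to their active form by thioredoxin, and Prdx6 by glutathione. In brain these enzymes are known for protecting neurons and glia, which use much oxygen, from oxidative damage.

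Levels were FPKM, the fragments of a gene divided by its transcript length and by the library's mapped fragments, so genes of different length can be compared. The summed FPKM ranged from 386945 to 441948 per library, and 919 to 1440 genes were listed at 0. The spacing of low values gave a rough estimate of 15400000 to 16700000 mapped fragments per library. The 10 neuronal markers, which fit a brain sample, summed to 2530 to 2890 FPKM. Ctrl replicate 3 stood apart in markers of the choroid plexus, the epithelium that makes cerebrospinal fluid: Ttr was at 7359.89 FPKM there, against 12.17 FPKM in the other Ctrl library and 47.15 and 75.24 FPKM in LA.

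None of the 10 genes passed the test between LA and Ctrl. In limma on log2(FPKM + 1), 0 of 10 had an adjusted p under 0.05 and Sod3 alone (1 of 10) was under 0.05 before adjustment. Of all genes tested, 0.141% passed the adjusted threshold, all lower in LA, and 7.80% were under 0.05 unadjusted. The 2 groups did not overlap for 5 of 10 genes, a share to be read against 38.6% of all genes. Prdx1, Prdx2 and Prdx6 were higher in both LA libraries (17.6% of all genes) and Sod2 and Sod3 were lower in both (21.0% of all genes). The median log2 difference, LA minus Ctrl, was 0.03 over the 10 genes and -0.01 over all genes. Over the 6 peroxiredoxins it was 0.09 and over the 3 dismutases -0.10.

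**Figure D1:**
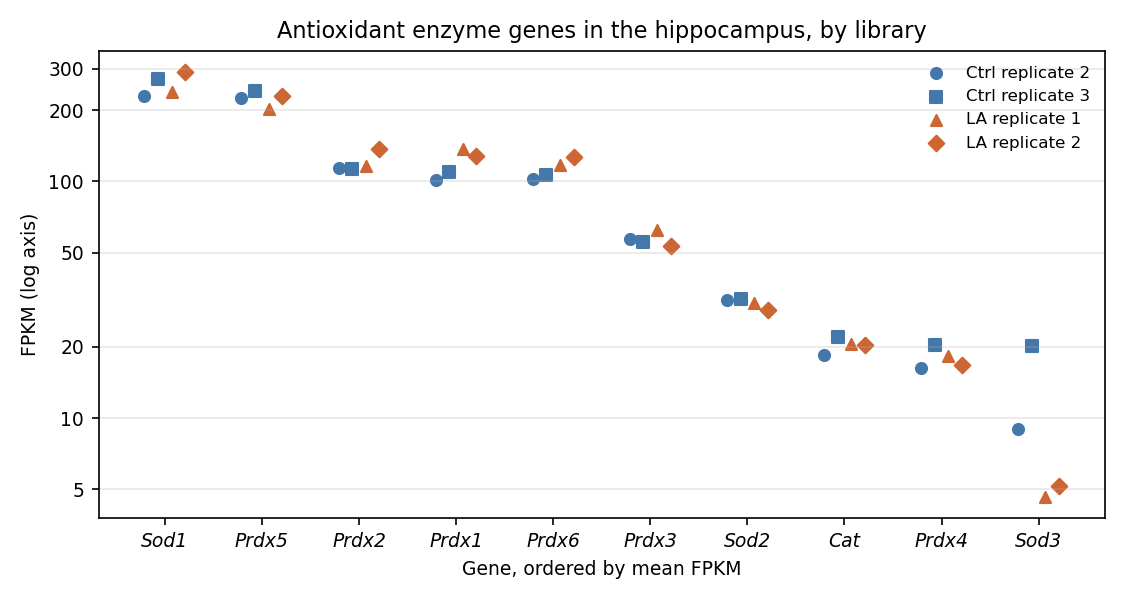
FPKM of the 10 genes in the 4 libraries on a log axis, 1 point per library, Ctrl in blue and LA in orange (n = 2 per group). The levels run from Sod1 and Prdx5, with means of 257 and 224 FPKM, to Sod3, at 9.04 and 20.09 FPKM in Ctrl and 4.66 and 5.17 FPKM in LA.

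Sod1, the cytosolic copper and zinc dismutase, had the highest mean level of the 10 genes (257 FPKM), followed by Prdx5 (224 FPKM). Prdx2, Prdx1 and Prdx6 came next at means of 120, 120 and 113 FPKM and changed places between libraries. Prdx3 (57.2 FPKM), Sod2 (30.6 FPKM), Cat (20.3 FPKM), Prdx4 (18.0 FPKM) and Sod3 (9.74 FPKM) followed in that order in all 4 libraries. The ranges over the 4 libraries overlapped between Sod1 and Prdx5, between Prdx2 and Prdx1, between Prdx1 and Prdx6, between Cat and Prdx4, and between Prdx4 and Sod3. Within each library, Sod1 was nevertheless above Prdx5, Cat above Prdx4 and Prdx4 above Sod3 in 4 of 4 libraries, while Prdx2 was above Prdx1 and Prdx1 above Prdx6 in 3 of 4. Among all listed genes Sod1 stood at percentile 98.8 to 99.0 and Sod3 at percentile 48.2 to 78.5. The summed FPKM of the 10 genes was 906 and 990 in Ctrl and 948 and 1040 in LA, between 0.234% and 0.251% of each library's total.

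Prdx1, a cytosolic peroxiredoxin with a pair of active cysteines (chr4:116685599-116700000, GRCm38), was at 101.79 and 110.14 FPKM in Ctrl and 137.72 and 128.37 FPKM in LA. Both LA libraries lay above both Ctrl libraries, and the mean was 25.6% higher in LA. On the log2 scale the difference was 0.33 (SE 0.162, 95% interval -0.053 to 0.705, n = 2 per group), with an adjusted p of 0.692 in limma. A difference at least as high was found in 9.82% of all genes tested.

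The promoters of Prdx1 and Sod1 are shown because the antioxidant response element, the site bound by NRF2, is a known control of antioxidant genes and because these were the 2 members whose window held a match to its core. RefSeq promoters on GRCm38.p6 were matched for 8 of 10 genes, and the 250 bases before the start were searched on both strands for TGACNNNGC, the core of that element, and for TGAGTCA, the AP-1 heptamer. The windows below are Prdx1 at chr4:116685349-116685598 and Sod1 at chr16:90220512-90220761, on the plus strand and written 5′ to 3′, with matches in capitals.
Prdx1: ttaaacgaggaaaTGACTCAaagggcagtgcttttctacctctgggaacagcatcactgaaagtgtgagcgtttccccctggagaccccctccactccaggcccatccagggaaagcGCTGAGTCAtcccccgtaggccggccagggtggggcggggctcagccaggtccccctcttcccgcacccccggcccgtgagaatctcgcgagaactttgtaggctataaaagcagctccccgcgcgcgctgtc
Sod1: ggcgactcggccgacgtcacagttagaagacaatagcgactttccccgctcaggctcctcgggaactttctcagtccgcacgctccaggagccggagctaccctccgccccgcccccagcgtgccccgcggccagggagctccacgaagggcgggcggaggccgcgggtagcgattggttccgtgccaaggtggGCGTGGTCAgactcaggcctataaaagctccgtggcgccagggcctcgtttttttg
In Prdx1 the element's core matched on the minus strand at GCTGAGTCA, 133 to 125 bases before the start. The AP-1 heptamer matched 237 to 231 bases before the start, at TGACTCA, and again at TGAGTCA inside the element's match. In Sod1 the core matched at GCGTGGTCA, 56 to 48 bases before the start. The core was found in 10.2% of 32851 RefSeq promoter windows of this length and the heptamer in 4.46%, and a match of letters is not a binding site.

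Prdx2, the other abundant cytosolic peroxiredoxin and a main one of neurons and red cells (chr8:84969622-84974811), was at 114.04 and 112.86 FPKM in Ctrl and 116.68 and 137.02 FPKM in LA. LA replicate 1 was barely above the Ctrl libraries and LA replicate 2 well above them. The log2 difference was 0.16 (SE 0.168, 95% interval -0.239 to 0.549), with an adjusted p of 0.86 in limma, and it was 0.04 without LA replicate 2. The ratio of Prdx1 to Prdx2 was 0.893 and 0.976 in Ctrl and 1.18 and 0.937 in LA, so which of the pair was higher differed between the LA libraries.

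Prdx6, which has a single active cysteine and also acts on phospholipids (chr1:161240112-161251210), was at 102.66 and 106.03 FPKM in Ctrl and 117.19 and 127.39 FPKM in LA. The groups did not overlap, and the mean was 17.2% higher in LA. LA exceeded Ctrl by 0.23 on the log2 scale (SE 0.159, 95% interval -0.147 to 0.599), with an adjusted p of 0.776 in limma.

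The remaining peroxiredoxins overlapped between the groups. Prdx3, the mitochondrial peroxiredoxin (chr19:60864066-60874538), was at 57.13 and 55.76 FPKM in Ctrl and 62.30 and 53.60 FPKM in LA, and both Ctrl libraries lay between the LA libraries. Prdx4, of the endoplasmic reticulum (chrX:155323918-155342272), was at 16.32 and 20.30 FPKM in Ctrl and 18.37 and 16.83 FPKM in LA. Here both LA libraries lay between the Ctrl libraries. Prdx5, found in mitochondria, peroxisomes and cytosol (chr19:6906697-6910106), was at 225.99 and 240.43 FPKM in Ctrl and 202.04 and 229.12 FPKM in LA. LA replicate 1 was the lowest and Ctrl replicate 3 the highest of the 4 libraries. The log2 differences were 0.03 for Prdx3, -0.05 for Prdx4 and -0.12 for Prdx5, with adjusted p of 0.979, 0.968 and 0.922 in limma, and their 95% intervals lay within -0.55 and 0.396. The share of Prdx1 and Prdx2 in the summed peroxiredoxin FPKM was 34.9% and 34.5% in Ctrl and 38.9% and 38.3% in LA.

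**Figure D2:**
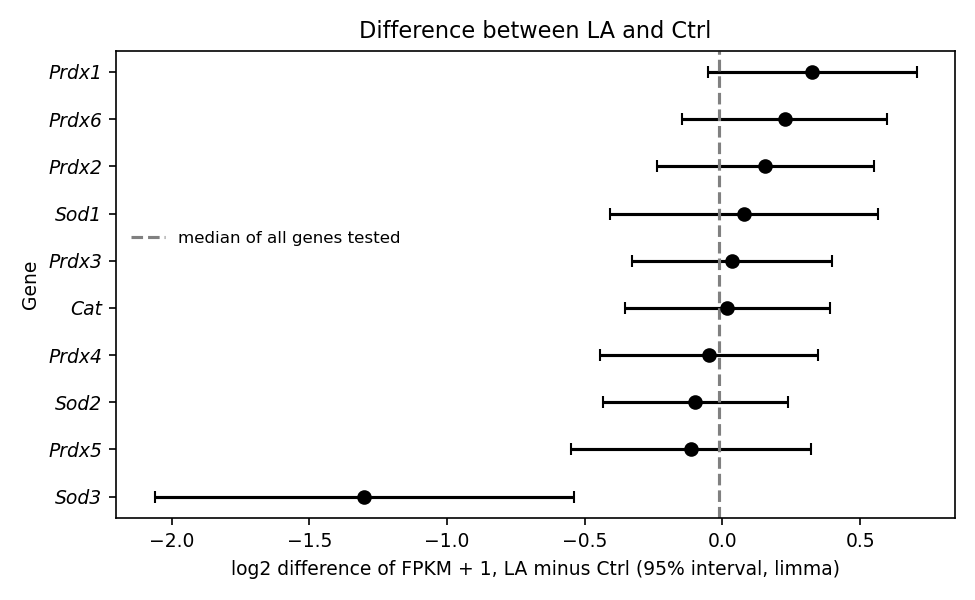
Log2 difference of each of the 10 genes, LA minus Ctrl, on the log2(FPKM + 1) scale, with 95% intervals from limma (n = 2 per group). The interval of Sod3, -2.062 to -0.538, is the only one of the 10 that does not include 0, and with its adjusted p of 0.392 it did not pass the test over all genes.

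Among the dismutases, Sod3 had the largest difference of the 10 genes. Sod3, the secreted copper and zinc dismutase that binds to the extracellular matrix and is known from vessel walls (chr5:52363804-52369738), was at 9.04 and 20.09 FPKM in Ctrl and 4.66 and 5.17 FPKM in LA. The LA libraries were close together and below both Ctrl libraries, while Ctrl replicate 3 was 2.22 times Ctrl replicate 2. The mean was 2.96-fold higher in Ctrl, and the lower Ctrl library was 1.75 times the higher LA library. The log2 difference was -1.30 (SE 0.325, 95% interval -2.062 to -0.538, n = 2 per group), with an unadjusted p of 0.0047 and an adjusted p of 0.392 in limma. A difference at least as far below 0 was found in 0.777% of all genes tested. Without Ctrl replicate 3 the log2 difference was -0.76, and without Ctrl replicate 2 it was -1.84. Each of these fits leaves a single Ctrl library, so only the sizes are given here. In the second fit that library is Ctrl replicate 3, which stood apart in choroid plexus markers. From the estimated depth, about 266 to 1237 fragments per library lay behind these values, a counting error of 2.84% to 6.13%.

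Sod1 (chr16:90220762-90226333) was at 229.62 and 270.56 FPKM in Ctrl and 238.25 and 290.27 FPKM in LA. The groups overlapped, and the spread within each was larger than the distance between their means. Sod2, the manganese dismutase of mitochondria (chr17:13007839-13018119), was at 31.49 and 31.89 FPKM in Ctrl and 30.52 and 28.59 FPKM in LA. Both LA libraries lay below both Ctrl libraries by a small margin. The log2 difference was 0.08 for Sod1 (95% interval -0.409 to 0.563) and -0.10 for Sod2 (95% interval -0.435 to 0.239, and -0.053 without LA replicate 2), with adjusted p of 0.958 and 0.905 in limma. The ratio of Sod1 to Sod3 was 25.4 and 13.5 in Ctrl and 51.1 and 56.1 in LA, and the ratio of Sod1 to Sod2 was 7.29 and 8.48 in Ctrl and 7.81 and 10.2 in LA. Only the first of these ratios separated the groups.

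Cat, the peroxisomal enzyme that splits hydrogen peroxide (chr2:103453904-103485153), was at 18.40 and 22.06 FPKM in Ctrl and 20.49 and 20.35 FPKM in LA. Both LA libraries lay between the Ctrl libraries. The log2 difference was 0.02 (SE 0.159, 95% interval -0.354 to 0.391), with an adjusted p of 0.991 in limma. The summed dismutase FPKM divided by that of the peroxiredoxins and Cat was 0.425 and 0.483 in Ctrl and 0.405 and 0.455 in LA, with overlap.

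Some of these levels may hold reads of other genes. In GENCODE transcripts, processed pseudogenes with at least 90% identity were found for Prdx1 (Gm21399, Gm7204 and Gm15974), Prdx2 (Tdpx-ps1 and Gm5225) and Sod1 (Gm8566), and how the counting shared reads with them is not given in the sources used here. Prdx6b, a copy of Prdx6 with 90.1% identity over 1444 bases, was at 0 FPKM in 3 libraries and 0.02 FPKM in Ctrl replicate 3. Prdx5 overlaps Trmt112, on the other strand, over 360 bases, and whether counting used strand is not given either.

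Sod3 was lower in the same libraries as markers of the membranes and vessels of the brain. The 14 markers of the leptomeninges, the thin membranes around the brain, summed to 397 and 477 FPKM in Ctrl and 121 and 135 FPKM in LA. All 14 had negative log2 differences and 7 fell in limma with an adjusted p under 0.05 (0.141% of all genes), in a list chosen with earlier results known. The smallest p was that of Slc6a20a, a transporter (26.34 and 30.01 FPKM in Ctrl, 4.03 and 4.26 FPKM in LA, adjusted p of 0.0106 in limma). Without LA replicate 2, 2 of the 14 passed, and without any other single library 9 to 11 did. Dcn, a matrix proteoglycan and the most abundant of the list, was at 69.95 and 67.78 FPKM in Ctrl and 48.74 and 59.25 FPKM in LA. The 10 endothelial markers summed to 44.1 and 84.7 FPKM in Ctrl and 34.2 and 35.0 FPKM in LA. Differences were negative in 8 of 8 tested genes, and 0 passed in limma (4 with an unadjusted p under 0.05, against 7.80% of all genes). Ly6c1, the most abundant of the list, was at 18.17 and 47.49 FPKM in Ctrl and 15.61 and 18.69 FPKM in LA. It overlapped between the groups and was high in Ctrl replicate 3 alone, and it made up much of this sum. The 10 smooth muscle and pericyte markers summed to 81.1 and 77.5 FPKM in Ctrl and 37.7 and 38.9 FPKM in LA. Differences were negative in 6 of 7 tested genes and positive in 1, which was higher in both LA libraries. A single gene, Vtn, held most of this sum in Ctrl and most of its fall. The pericyte gene Vtn was the 1 that fell (50.79 and 45.54 FPKM against 13.16 and 15.80 FPKM, adjusted p of 0.0196 in limma, 0.0535 without LA replicate 2). Thus Sod3 and these 3 sums were lower in both LA libraries, none of the markers was at 0 in any library, and the part of these cells in the Sod3 values was not tested. In bulk tissue, fewer cells of a type and less RNA per cell cannot be told apart.

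The choroid plexus list was highest in Ctrl replicate 3. Its 10 tested markers had negative log2 differences, but only 2 of 10 were lower in both LA libraries (21.0% of all genes). In limma 0 passed (1 with an unadjusted p under 0.05, against 7.80% of all genes). The 9 markers other than Ttr summed to 10.2 and 233 FPKM in Ctrl and 11.4 and 14.0 FPKM in LA. That sum was lower in Ctrl replicate 2 than in both LA libraries. Kcnj13, a potassium channel of this epithelium, was 1 of the 2 markers higher in both Ctrl libraries, at 2.79 and 24.54 FPKM in Ctrl and 0.61 and 0.65 FPKM in LA. Its log2 difference was -2.59 (adjusted p of 0.461 in limma), -1.22 without Ctrl replicate 3 and -3.97 without Ctrl replicate 2. The part of choroid plexus RNA in the Sod3 values was not tested.

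**Figure D3:**
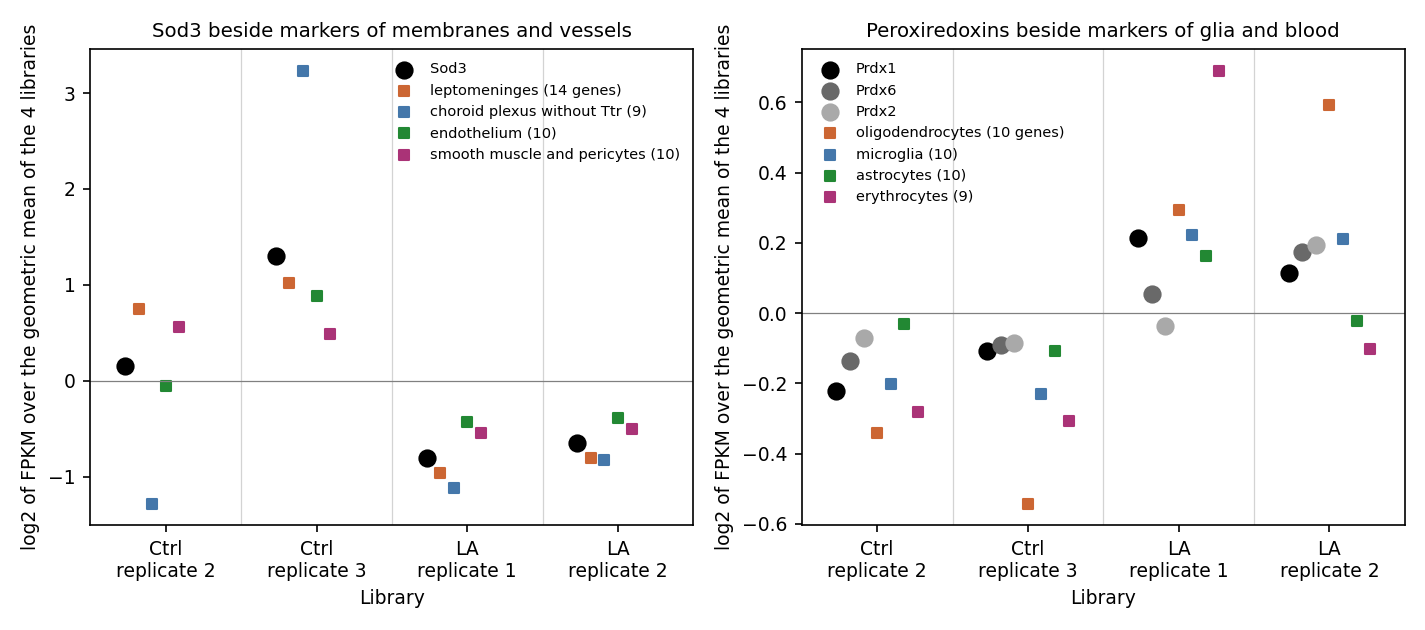
Log2 of FPKM over the geometric mean of the 4 libraries, 1 point per library, for Sod3 beside the summed markers of leptomeninges, choroid plexus without Ttr, endothelium, and smooth muscle and pericytes (left), and for Prdx1, Prdx2 and Prdx6 beside those of oligodendrocytes, microglia, astrocytes and erythrocytes (right). On the left, Sod3 and the leptomeningeal sum are above 0 in both Ctrl libraries and below 0 in both LA libraries, and the choroid plexus sum is high in Ctrl replicate 3 only.

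Prdx1, Prdx2 and Prdx6 were the members higher in both LA libraries, so any markers higher in LA share that direction with them. The marker sums of oligodendrocytes, microglia and erythrocytes were also higher in both LA libraries. The 10 oligodendrocyte markers, genes of the myelin-forming cells, summed to 2230 and 1940 FPKM in Ctrl and 3460 and 4260 FPKM in LA. The 10 microglial markers summed to 314 and 308 FPKM in Ctrl and 421 and 418 FPKM in LA. The 9 erythrocyte markers summed to 1680 and 1650 FPKM in Ctrl and 3290 and 1900 FPKM in LA. Within LA, this sum and Prdx1 were higher in replicate 1, but Prdx2 and Prdx6 were higher in replicate 2. Every tested gene of these 3 lists had a positive log2 difference and 0 passed the test in limma. Unadjusted p was under 0.05 for 10 of 10 oligodendrocyte, 4 of 10 microglial and 1 of 6 erythrocyte genes. Over all genes that share was 7.80%, and the lists were chosen with earlier results known. The astrocyte markers summed to 830 and 786 FPKM in Ctrl and 948 and 835 FPKM in LA, and had 7 positive and 3 negative differences. The part of these cells in the peroxiredoxin values was not tested.

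The genes whose pattern over the 4 libraries was most like that of Sod3, by Euclidean distance between centred log2(FPKM + 1) values, were Cgnl1 (distance 0.118), Cdkn1c (0.161) and Gpx8 (0.189). Cgnl1, a junction protein, was at 1.79 and 5.06 FPKM in Ctrl and 0.69 and 0.65 FPKM in LA. Cdkn1c, a cell cycle inhibitor, was at 4.46 and 12.15 FPKM in Ctrl and 2.44 and 2.83 FPKM in LA. Each shared with Sod3 a Ctrl replicate 3 above Ctrl replicate 2 and a low pair of LA libraries, which follows from their being picked by this distance. The log2 differences of Cgnl1 and Cdkn1c were -1.30 and -1.22. They were -0.74 and -0.59 without Ctrl replicate 3, and -1.86 each without Ctrl replicate 2. For Prdx1 the nearest were Cox7c, of the respiratory chain (0.0299), Phip (0.0311) and Pcdh19, a protocadherin (0.0344). Within a distance of 0.3 lay 10 genes for Sod3 and 1930 genes for Prdx1. This distance is not scaled to the size of a gene's differences, and genes that change little lie close together. These counts therefore cannot be compared and do not show how common either pattern was.

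The 7 lists of genes related to these enzymes held 95 genes, of which 85 were tested. In limma 0 of 85 passed (0.141% of all genes) and 7 had an unadjusted p under 0.05 (7.80% of all genes). Of all genes tested, 17.6% were higher and 21.0% lower in both LA libraries, and such cases below are to be read against these shares. Their median log2 differences ran from -0.13 for glutathione-dependent peroxide removal to 0.01 for NADPH supply, against -0.01 over all genes.

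The thioredoxin system, which recycles most peroxiredoxins, had 5 positive and 8 negative log2 differences among 13 tested genes. Txn1, the cytosolic thioredoxin, was at 39.92 and 39.42 FPKM in Ctrl and 43.56 and 45.99 FPKM in LA, higher in both LA libraries (log2 difference 0.17). Txnrd1, its reductase, and Srxn1, which repairs overoxidized peroxiredoxins, overlapped between the groups, with log2 differences of -0.08 and -0.07. Txnip, which binds and inhibits thioredoxin, was at 16.27 and 31.39 FPKM in Ctrl and 12.74 and 10.27 FPKM in LA. It was lower in both LA libraries, with a log2 difference of -0.93 and an adjusted p of 0.534 in limma. The difference of Txnip was -1.38 without Ctrl replicate 2 and -0.47 without Ctrl replicate 3. Glrx2, a mitochondrial glutaredoxin, and Txnrd3, a reductase known from testis, had log2 differences of 0.25 and -0.35.

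Glutathione-dependent peroxide removal had 4 positive and 5 negative log2 differences among 9 tested genes, and 2 had an unadjusted p under 0.05 in limma (7.80% of all genes). Gpx8, a peroxidase of the endoplasmic reticulum, was at 6.38 and 17.22 FPKM in Ctrl and 3.87 and 4.14 FPKM in LA. Gpx3, the secreted plasma peroxidase, was at 8.93 and 13.51 FPKM in Ctrl and 6.58 and 7.74 FPKM in LA. Both were lower in both LA libraries, as was Sod3, and highest in Ctrl replicate 3. Their log2 differences were -1.21 and -0.56, with adjusted p of 0.538 and 0.61 in limma. Without Ctrl replicate 3 they were -0.56 and -0.29. Without Ctrl replicate 2 the difference of Gpx8 was -1.86. Gss, glutathione synthetase, had a log2 difference of 0.38.

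The list for metal supply of the dismutases had 4 positive and 7 negative log2 differences among 11 tested genes. It also holds genes that deliver copper to other enzymes, such as Sco2. Ccs, the copper chaperone that loads Sod1, was at 12.34 FPKM in both Ctrl libraries and at 11.71 and 14.29 FPKM in LA. Slc31a1, the copper importer, was at 5.83 and 21.48 FPKM in Ctrl and 5.35 and 5.29 FPKM in LA. Ctrl replicate 3 alone was high. The log2 difference was -0.97 (adjusted p of 0.69 in limma), -1.83 without Ctrl replicate 2 and -0.11 without Ctrl replicate 3. Atp7a, the pump that delivers copper to secreted enzymes, was at 1.16 and 3.06 FPKM in Ctrl and 1.32 and 0.84 FPKM in LA, again with Ctrl replicate 3 the highest (log2 difference -0.52, and -0.06 without that library). Sco2, a mitochondrial copper chaperone of cytochrome oxidase, was at 11.63 and 11.44 FPKM in Ctrl and 6.76 and 8.84 FPKM in LA. It was lower in both LA libraries without a high Ctrl replicate 3 (log2 difference -0.52, adjusted p of 0.605 in limma).

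The 4 other lists also had genes on both sides of 0. The list called NADPH supply, whose genes need not make NADPH themselves, had 5 positive and 5 negative log2 differences among 10 tested genes. Among them were 0.36 for Me3 and -0.32 for Me2, mitochondrial malic enzymes, and 0.34 for Taldo1, of the pentose phosphate pathway (0.13 without LA replicate 2). Sources of superoxide and peroxide had 3 positive and 8 negative among 11 tested, with -0.57 for Aox1, an aldehyde oxidase (-0.34 without Ctrl replicate 3, -0.29 without LA replicate 2), and 0.26 for Ncf1, a subunit of the phagocyte NADPH oxidase. The peroxisome list had 11 positive and 12 negative among 23 tested, with -0.41 for Pex14, of peroxisome import, and 0.38 for Acaa1a, of peroxisomal fatty acid oxidation. The 13 tested NRF2 targets had 5 positive and 8 negative, from -0.49 to 0.55. Of these, 4 were lower in both LA libraries (21.0% of all genes) and 3 were higher in both (17.6% of all genes). The 3 of smallest unadjusted p in limma were among those lower in both. They were Nqo1, a quinone reductase, Slc7a11, the cystine importer, and Hmox1, heme oxygenase, at -0.49, -0.48 and -0.42. Without Ctrl replicate 3 the difference was -0.19 for Nqo1 and -0.21 for Hmox1, and without LA replicate 2 it was -0.18 for Slc7a11. None of these genes passed the test.

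**Figure D4:**
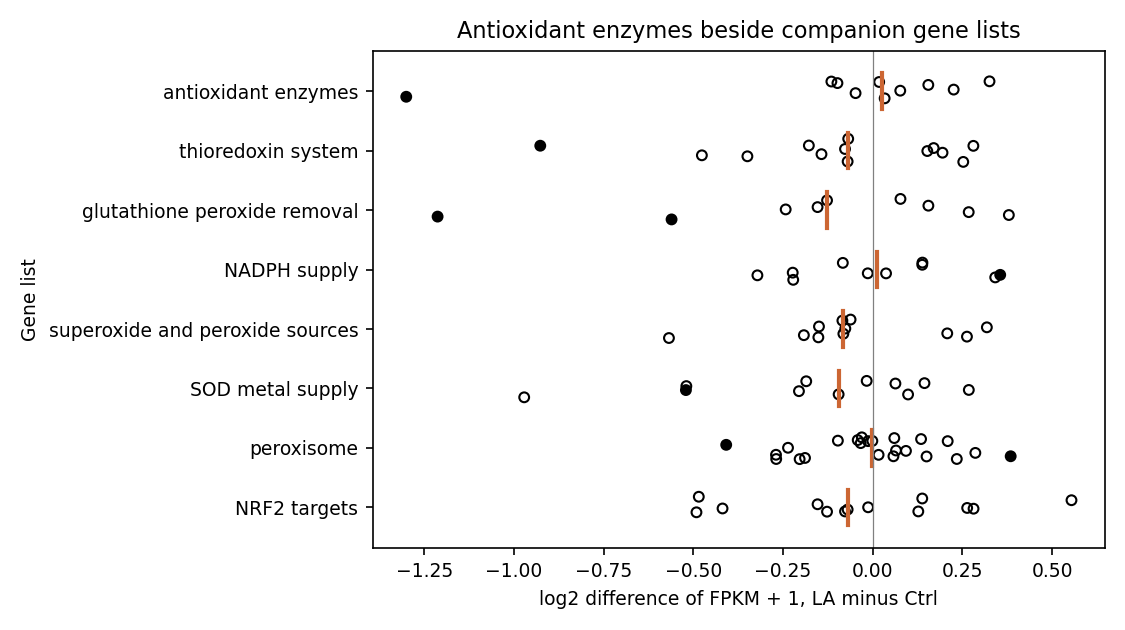
Log2 differences, LA minus Ctrl, of every tested gene of the 7 lists and of the 10 genes described here, 1 point per gene, filled where the unadjusted p was under 0.05, with an orange bar at each list's median. The medians of the 7 lists lie between -0.13 and 0.01, and the points farthest below 0 are Sod3 at -1.30 and Gpx8 at -1.21.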

How the data were processed

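RNA-seq of mouse hippocampus gave 4 libraries, 2 Ctrl and 2 LA, grouped by GEO's labels. The authors deposited 1 table of FPKM per gene. TopHat2, Cufflinks and GRCm38 are named in the submitters' processing notes, without versions, and neither the annotation nor the strand setting is given in the sources used here. Cufflinks assigns fragments to transcripts by likelihood, so values of near-identical genes share reads. Of 19230 gene IDs, 18293 were found in RefSeq, and 11 symbols turned into dates were restored by ID.

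Genes averaging 1 FPKM or more were tested on log2(FPKM + 1) with limma 3.58.1 (R 4.3.3, eBayes with trend, 2 residual and 5.37 prior degrees of freedom, two-sided) and Benjamini-Hochberg adjustment over all genes, with a threshold of 0.05. Differences on this scale understate the change of low genes. An exact permutation test of 2 against 2 libraries cannot go below p = 0.333. The procedure was tested on simulated data. Depth was estimated from the spacing of low FPKM values of genes with 1 transcript, and counting errors come from it. Near-identical transcripts were searched with blastn 2.17.0 in GENCODE, and tables were made in Python 3.11.15.

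Named genes were the 10 members, up to 3 genes of smallest unadjusted p in each companion list, the 3 genes nearest to Sod3 and to Prdx1, marker genes and copies, and 2 genes that this rule names are not reported here. Txn1, Txnrd1, Srxn1 and Ccs were added for their roles after their values were seen. The members and lists were chosen with earlier results of these data known. Alternatives covered pseudocount, filter, scaling, moderation, length and GC content, and leaving out each library.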

Additional observations from a re-analysis of the deposited data

How the results depend on the processing

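With 2 libraries per group, each value leans on single libraries. When 1 library was left out, the remaining library of its group was given the spread of the other group. No paired analysis was possible because the groups share only 1 replicate number. The count of genes passing in limma, 19 as reported, was 0 with no filter on low values (1333 with an unadjusted p under 0.05), 40 with robust estimation, 18 to 28 under the 7 other alternatives, and 2 to 227 when 1 library was left out (227 without Ctrl replicate 2, 78 without Ctrl replicate 3, 177 without LA replicate 1, 2 without LA replicate 2). Of the 10 genes described, 0 passed under the 9 alternatives, and 0 to 1 when a library was left out, the 1 being Sod3 without Ctrl replicate 2. The leptomeningeal markers, of which 7 passed, had 0 passing with no filter, 6 to 9 under the 8 other alternatives and 2 to 11 with a library left out. Sod3 kept a negative log2 difference throughout, -1.44 to -1.23 under the 9 alternatives and -1.84 to -0.76 with a library left out.

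The median log2 difference of the 10 genes was -0.076 after correction for length and GC content, which 96.4% of tested genes could enter, and -0.074 to 0.12 with a library left out. That correction also changed the sign of Prdx3 (-0.067), Sod1 (-0.15), Cox7c (-0.044) and Ccs (-0.053), and quantile normalization that of Sod1 (-0.10) and Snap25 (-0.11). Leaving out a library changed the sign of Prdx3 (-0.073 to 0.14), Prdx4 (-0.20 to 0.10), Sod1 (-0.065 to 0.22), Cat (-0.11 to 0.14), Ttr (-6.92 to 2.20), Snap25 (-0.026 to 0.30), Ccs (-0.070 to 0.20) and Txnrd1 (-0.16 to 0.011). The cause of these changes was not tested. Of 130 values of the 10 genes, 120 kept their direction and their side of the threshold, 1 newly passed and 9 changed sign.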
